A study of Campylomormyrus compressirostris and Campylomormyrus rhynchophorus and Campylomormyrus compressirostris x Campylomormyrus rhynchophorus with 15 samples.

Results

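The actin and muscle genes of the electrocyte, the current-producing cell of the electric organ, were described for 6 of 34492 gene models in 15 juvenile fish. They are the models that the study's supplementary tables name *GSN* (maker-ptg002297l-snap-gene-0.45), *TMOD4* (maker-ptg000059l-snap-gene-7.59), *LCP1* (maker-ptg001619l-augustus-gene-1.271), *HIP1* (maker-ptg000399l-augustus-gene-13.63), *C10orf71* (maker-ptg001309l-est_gff_est2genome-gene-5.122) and *KLHL30* (maker-ptg000057l-augustus-gene-21.17), taken by identifier. *GSN* and *LCP1* stand in the study's list of discharge candidates, the other members in its list of genes whose allele shares shift with age in hybrids, and *HIP1* in both. Those lists were drawn up with these same libraries among others, so a difference seen here is not independent evidence for a gene's place in them.

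The fish were F1 hybrids of a *Campylomormyrus compressirostris* male and a *Campylomormyrus rhynchophorus* female (5 fish, comrhy59 to comrhy63), *C. rhynchophorus* (*rhy*, 5 fish, rhy49 to rhy53) and *C. compressirostris* (*com*, 5 fish, com104, com121, com123, com124 and com125). All were juveniles labelled as 6 cm long and bred in captivity, with no treatment named, with 1 poly(A) RNA library from the electric organ of each fish. The electric organ discharge of juveniles is brief in *com* and in hybrids and longer in *rhy* alone. A level that goes with the discharge therefore cannot be told apart from one particular to *rhy*, with hybrids like *com*. Reads of all fish were counted on the gene models of *com*, and how far sequence differences between the species lower the counts of *rhy* reads was not tested.

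Electrocytes are derived from skeletal muscle cells that give up contraction and keep an excitable membrane, and the shape of the cell and its membrane folds rest on the actin cytoskeleton. Actin filaments grow and shrink at their ends, where capping proteins such as tropomodulin and gelsolin act. The filaments are gathered into bundles by plastins and tied to the membrane by adaptor proteins. In striated muscle the same filaments are anchored at the Z-disc, where several muscle-specific proteins are found.

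Library totals were 12973350 to 19259304 counts in hybrids, 12502114 to 13927972 in *rhy* and 8346577 to 11549622 in *com*, and a library held 19739 to 22336 models with a count. The sodium channel *SCN4AA* and the potassium channel *KCNA7A_1*, both marks of the labelled organ, were detected in every library. They summed to 2742 to 3243 CPM (counts scaled to library size by TMM) in hybrids, 861 to 1096 in *rhy* and 3562 to 6121 in *com*. *KCNA7A_1* alone averaged 249 CPM in hybrids, 32.7 in *rhy* and 1023 in *com*. *SCN4AA* was at 4975 CPM in com104 and 2623 to 3301 CPM in the other *com* fish. Among *com*, com104 stood apart, since its most abundant gene took 3.63% of all counts against 9.70% to 19.3% in the other *com* fish. This share was 2.64% to 5.18% in *rhy* and 4.38% to 5.89% in hybrids, so com104 lay within the range of *rhy*. Where com104 changed a call, an order or a range among the members, values without it are given too. In these bulk samples fewer cells of a type and less RNA per cell cannot be told apart.

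On the scale of TPM, which is per transcript length, *TMOD4* was the most abundant member in every group, with 1227 ± 150 TPM in hybrids, 696 ± 186 in *rhy* and 1279 ± 168 in *com* (SD, n = 5 each). *C10orf71* came next in hybrids with 342 ± 40.2 TPM and in *com* with 252 ± 65.5 TPM. In *rhy*, *GSN* with 128 ± 47.3 TPM and *KLHL30* with 127 ± 18.0 TPM stood above *C10orf71* with 92.9 ± 22.3 TPM, and the ranges of the 3 over the fish overlapped, although *KLHL30* was above *C10orf71* within each of the 5 *rhy* fish. *HIP1* averaged 89.8 ± 16.5 TPM in hybrids, 61.6 ± 10.6 in *rhy* and 90.6 ± 10.4 in *com*. *GSN*, near the middle of the order in hybrids (132 ± 49.9 TPM), was the second lowest member in *com* (39.3 ± 15.3 TPM). *LCP1* was the lowest everywhere, with at most 15.6 TPM in any fish.

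**Figure D1:**
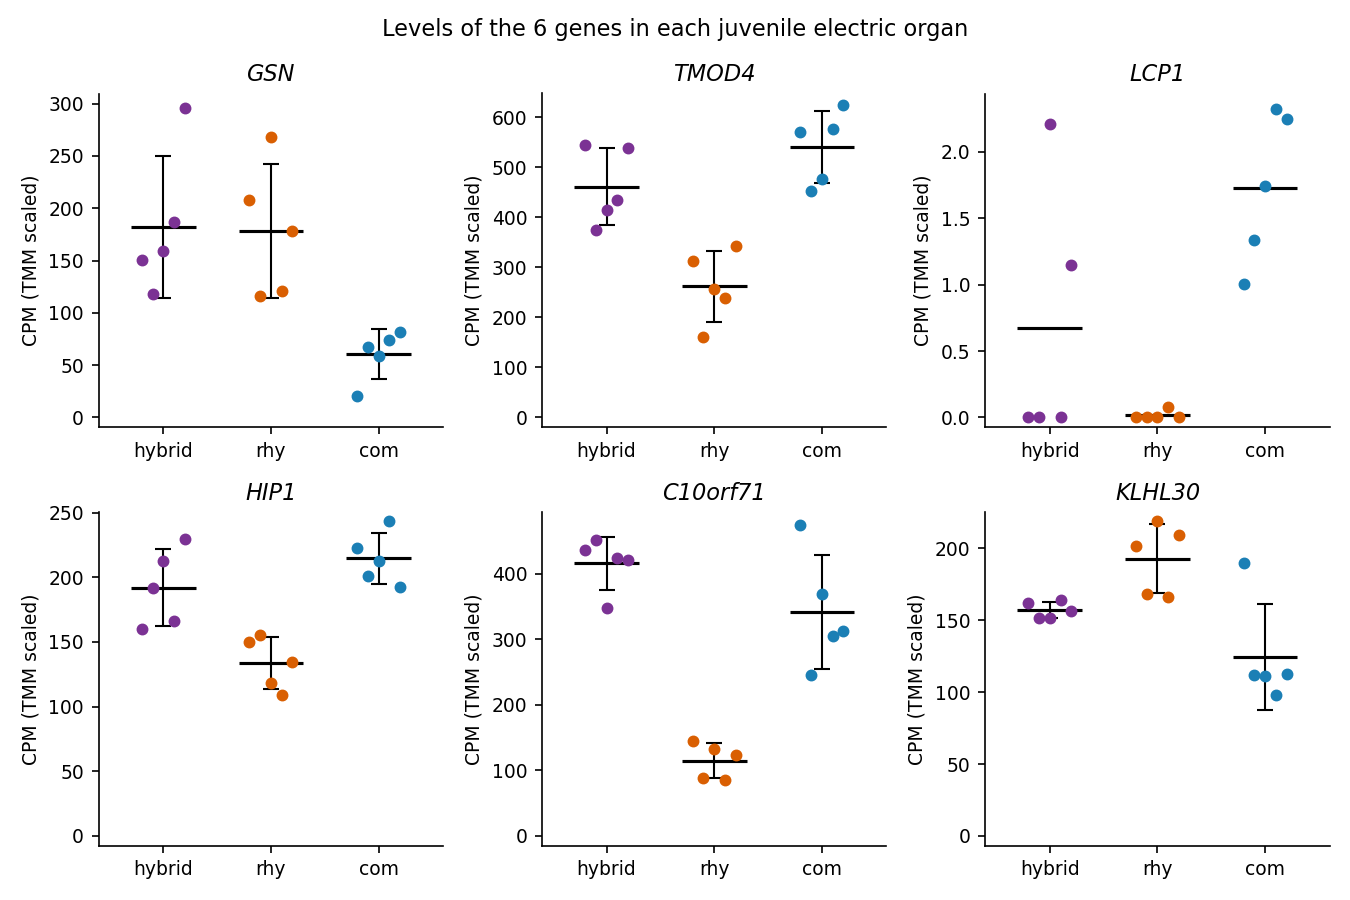
CPM scaled by TMM (vertical axes) of the 6 genes in each fish, with hybrid, *rhy* and *com* from left to right. Points are fish, long bars are group means and error bars are SD (n = 5 each, none drawn for *LCP1*, which had no counts in 7 fish). *GSN* was low in all *com* fish, *TMOD4*, *HIP1* and *C10orf71* were low in *rhy*, and *LCP1* had counts in all *com* fish and in 2 hybrids beside a single count in rhy52.

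A difference was called at an adjusted p under 0.05 (edgeR's quasi-likelihood test, Benjamini-Hochberg adjusted over 18489 genes) together with a log2 fold change beyond 1. Between *rhy* and *com*, 4 of the 6 members were called, 1 higher and 3 lower in *rhy*, where 22.8% of all genes were called. Without the fold limit all 6 members passed, against 45.4% of all genes, and in 5 members the fish of the 2 species did not overlap, as in 30.2% of all genes. Between hybrids and *com* 1 member was called (9.08% of all genes), 1 passed without the fold limit (21.9%) and 1 had no overlap (14.9%), *GSN* in each case. Between hybrids and *rhy* 2 members were called (12.1%), 4 passed without the fold limit (28.6%) and 4 had no overlap (21.8%). Against both parents averaged (on log2 values), 1 member was called (4.54%) and the same 1 passed without the fold limit (13%). The median of the 6 log2 fold changes was -0.86 in *rhy* against *com*, 0.06 in hybrids against *com* and 0.67 in hybrids against *rhy*, beside medians over all genes of -0.02, 0.03 and 0.05. Since the 6 genes were picked with results of these data known, nothing about the group is read from these shares.

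**Figure D2:**
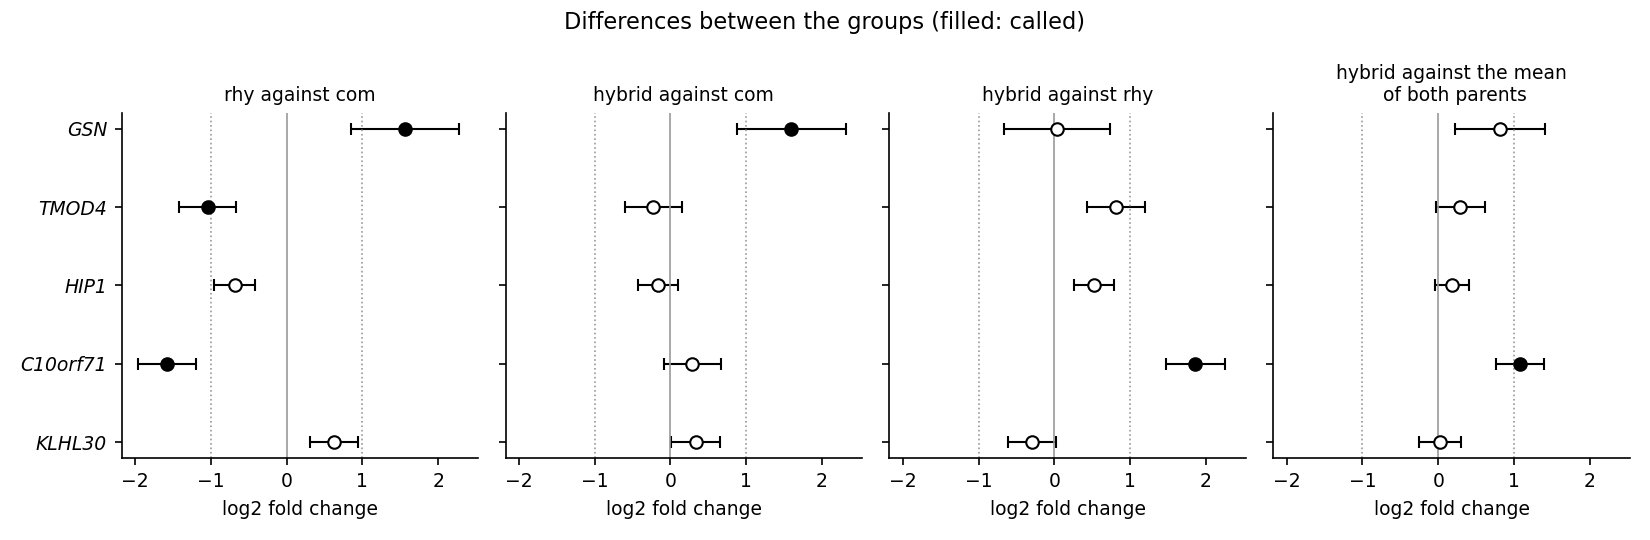
Log2 fold changes (horizontal axes) with 95% confidence intervals for 5 of the genes, in panels for *rhy* against *com*, hybrid against *com*, hybrid against *rhy* and hybrid against the mean of both parents. Filled points are called, and dotted lines mark the fold limit of 1 in either direction. *LCP1* is left out because a fitted fold change against fish without counts depends on the prior count. *GSN* is filled in both panels against *com*, *TMOD4* in that of *rhy* against *com*, and *C10orf71* is filled in every panel but that of hybrids against *com*.

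*GSN*, gelsolin, severs actin filaments and caps their fast-growing ends when calcium rises. It was about 3 times as abundant in hybrids and in *rhy* as in *com*. The hybrids comrhy59 to comrhy63 had, in this order, 150, 119, 159, 187 and 296 CPM. The *rhy* fish had 207, 116, 269, 120.7 and 179 CPM from rhy49 to rhy53, whereas *com* had 20.6 CPM in com104, 66.9 in com121, 58.7 in com123, 74.0 in com124 and 81.5 in com125. All fish of both other groups lay above all *com* fish, and hybrids and *rhy* spanned almost the same range.

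The log2 fold change of *GSN* was 1.56 in *rhy* against *com* (SE 0.34, adjusted p = 0.00140 by edgeR), a fold of 2.96 with a 95% interval of 1.80 to 4.86. In hybrids against *com* it was 1.59 (SE 0.34, adjusted p = 0.00337), and without com104, the lowest fish, these values were 1.34 and 1.37 and both were still called. Hybrids and *rhy* differed by 0.03 with an interval of -0.67 to 0.73 (adjusted p = 0.958 by edgeR), which leaves room for a difference of more than 1.5-fold either way. Against the mean of both parents, *GSN* in hybrids was 0.81 (interval 0.22 to 1.40, adjusted p = 0.0657). *GSN* varied most between fish among the 5 members with counts throughout in hybrids, with a coefficient of variation (CV) of 0.374, and in *rhy*, with 0.357. In *com* its CV was 0.394, but without com104 it was 0.139, below those of *TMOD4* (0.152) and *C10orf71* (0.164) in the same 4 fish. The median CV of genes above a mean of 10 CPM was 0.130 in hybrids, 0.135 in *rhy* and 0.172 in *com*.

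*TMOD4* encodes tropomodulin 4, which in mammalian skeletal muscle caps the pointed ends of the thin filaments. It was 0.486 times as abundant in *rhy* as in *com*. Its levels were 545, 374, 414, 434 and 539 CPM in comrhy59 to comrhy63. In *rhy* they were 312, 160, 258, 239 and 344 CPM from rhy49 to rhy53. In *com* they were 571 CPM in com104, 453 in com121, 478 in com123, 577 in com124 and 624 in com125. Every *rhy* fish lay below every fish of the other groups, and hybrids and *com* overlapped.

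In *rhy* against *com* the log2 fold change of *TMOD4* was -1.04 (SE 0.18, adjusted p = 0.000218 by edgeR), just past the fold limit. Without com125 it was -0.99 and without rhy50 it was -0.91, which kept the adjusted p under 0.05 but ended the call. Hybrids exceeded *rhy* by 0.81 (SE 0.18, adjusted p = 0.00327 by edgeR), within the fold limit. The difference between hybrids and *com* was -0.23 with an interval of -0.61 to 0.15 (adjusted p = 0.383).

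*LCP1*, L-plastin, bundles actin filaments and is known in mammals from white blood cells. It was scarce, and its presence differed between fish of a group. Among hybrids, comrhy61 had 30.59 expected counts (2.21 CPM) and comrhy63 had 23 (1.15 CPM), while comrhy59, comrhy60 and comrhy62 had 0. A count of 0 in those 3 libraries allows up to 0.220, 0.166 and 0.178 CPM, taking 3 counts as the limit and covering counting error only. In *rhy*, 1 count was found in rhy52 (0.0803 CPM) and 0 in the other 4 fish. All *com* fish had *LCP1*, with 1.01 CPM in com104, 1.33 in com121, 1.74 in com123, 2.32 in com124 and 2.25 in com125. The hybrids thus fell into 2 fish at the level of *com* and 3 without counts, and their mean describes no fish.

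Summed over fish, *LCP1* had 1 count in *rhy* and 77 in *com*, a ratio of 0.00869 scaled for library size, with a 95% counting interval of 0.000217 to 0.0499. The difference was called (adjusted p = 0.00291 by edgeR). Hybrids had 54 counts, all in comrhy61 and comrhy63, against 1 in *rhy*, a ratio of 44.9 with a counting interval of 7.72 to 1805. Neither interval covers the spread between fish. Hybrids against *rhy* were called too (adjusted p = 0.0241 by edgeR). This second call rested on few fish, for without comrhy61 the adjusted p was 0.0735, and leaving out rhy49, rhy50, rhy51 or rhy53 gave 0.0510, 0.0531, 0.0519 and 0.0531. With limma on log2(TPM + 1) it was 0.163. Hybrids and *com* gave an adjusted p of 0.355 by edgeR. *LCP1* passed the filter on low counts only through the 7 fish with *LCP1*, since it was above 10 counts in no other library.

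Presence of *LCP1* in those 7 fish and near absence in the other 8 was shared by no other of the 34492 models, asking for at least 5 counts in the first and at most 1 in the second, a pattern chosen after its values were seen. Its model is also the shortest of the 6, at 548 bases, and it was the single member with fractional expected counts, which arise where RSEM divides reads between models. Fractions occurred in com123 (12.63), com124 (20.36) and comrhy61 (30.59). In these libraries the model maker-ptg001194l-snap-gene-0.21 had 82.37, 106.64 and 324.41 expected counts, so that the fractions of both models added to whole numbers, and it had whole counts in the other 12 libraries. A further model also matched within 0.03 counts in the 3 libraries. The level of *LCP1* is therefore uncertain to the extent that reads could be placed on another model. Unlike *LCP1*, maker-ptg001194l-snap-gene-0.21 was higher in *rhy* than in *com*, by 1.03 on the log2 scale (adjusted p = 4.78e-06 by edgeR). In hybrids against *com* it stood at 0.75 (adjusted p = 0.000433 by edgeR). Whether the placing of reads shaped the pattern of *LCP1* was not tested.

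Genes of blood and immune cells named in the study's tables were set beside *LCP1*. *SLAMF9*, an immune receptor gene, was at 0 in all *rhy* fish, with 20 counts over the hybrids and 32 over *com*. It did not pass the filter on low counts. Within the hybrids it was at 0.513, 0.388 and 0.118 CPM in comrhy59, comrhy60 and comrhy62, which had no *LCP1* counts. In comrhy61 and comrhy63, which had *LCP1*, it was at 0.0713 and 0.150 CPM. A count of 0 allows up to 0.214 CPM in comrhy61, 0.178 in comrhy62 and 0.150 in comrhy63. No *SLAMF9* value of these fish exceeded that limit. Whether *SLAMF9* followed *LCP1* within the hybrids can therefore not be read from so few counts. *SIGLEC1*, a macrophage lectin gene, did not exceed 0.806 CPM in any fish, and that highest value was in comrhy59. Of the 4 genes of the 5 that passed the filter, 1 was higher in *rhy* than in *com* (*CD34*, by 3.78 on the log2 scale) and 1 was lower (*SCARF1*, at -1.22). Over all genes 22.8% were called in this comparison. *SCARF1* was at 86.2 CPM in com104 and 20.1 to 44.9 CPM in the other *com* fish, and without com104 its difference was -0.72, within the fold limit. The list summed to 145 to 239 CPM in hybrids, 554 to 709 in *rhy* and 110 to 183 in *com*, where com104 was the highest. *CD34*, which is also found on endothelium, averaged 98.7 CPM in hybrids, 564 in *rhy* and 41.1 in *com*. In *com*, *NLRP12* averaged 45.3 CPM and *SCARF1* 40.0 CPM, so *CD34* was not the main part there. The *SCARF1* mean was raised by com104, and its *com* median was 26.1 CPM. The part of blood cells in the *LCP1* pattern was not tested.

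*HIP1* is listed under the symbol of huntingtin-interacting protein 1 beside a description of its relative, and which of the 2 the model encodes was not settled here. Proteins of this family link clathrin-coated membrane to actin filaments. Its levels were 160, 191, 213, 166 and 230 CPM in comrhy59 to comrhy63. They were 150, 156, 118, 109 and 135 CPM in rhy49 to rhy53, against 223 in com104, 201 in com121, 213 in com123, 244 in com124 and 193 in com125. All *rhy* fish were the lowest, without overlap, while hybrids overlapped *com* and reached below it.

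The difference of *HIP1* in *rhy* against *com* was -0.69 on the log2 scale (SE 0.13, adjusted p = 0.000362 by edgeR), a fold of 0.622, and in hybrids against *rhy* 0.52 (SE 0.12, adjusted p = 0.00559), a fold of 1.44. Both passed the p threshold within the fold limit. Hybrids against *com* gave -0.16 with an interval of -0.43 to 0.10 (adjusted p = 0.378). *HIP1* had the lowest CV of the members in *com*, 0.0924, whereas without com104 it had 0.105 and *KLHL30* was lower at 0.0635.

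*C10orf71* has been described in mouse as a Z-disc protein of striated muscle that binds FHL2, and it carried the largest difference between hybrids and *rhy* among the 5 members with counts in every fish. The hybrids comrhy59 to comrhy63 had 436, 452, 347, 423 and 421 CPM. The *rhy* fish rhy49 to rhy53 had 144, 87.6, 132, 85.1 and 123.3 CPM. The *com* fish had 474 CPM in com104, 245 in com121, 369 in com123, 305 in com124 and 312 in com125. The highest *rhy* fish was thus well under the lowest fish of either other group, and 4 of the 5 hybrids lay above every *com* fish except com104.

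Against *rhy*, *C10orf71* in hybrids was higher by 1.86 on the log2 scale (SE 0.18, adjusted p = 4.31e-06 by edgeR), a fold of 3.64 with an interval of 2.78 to 4.76. In *rhy* against *com* it was -1.58 (SE 0.18, adjusted p = 4.75e-06), a fold of 0.335. Hybrids against *com* gave 0.29 with an interval of -0.09 to 0.66 (adjusted p = 0.267), and 0.43 without com104 (adjusted p = 0.0682). Against the mean of both parents hybrids were higher by 1.07 (SE 0.15, adjusted p = 0.000433 by edgeR), the single call of a member in that comparison, and it held without each fish in turn (1.02 to 1.15). That mean is taken on log2 values and lies below the mean of the parental CPM, against which hybrids were not tested. A hybrid at the level of *com* would also stand above it.

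**Figure D3:**
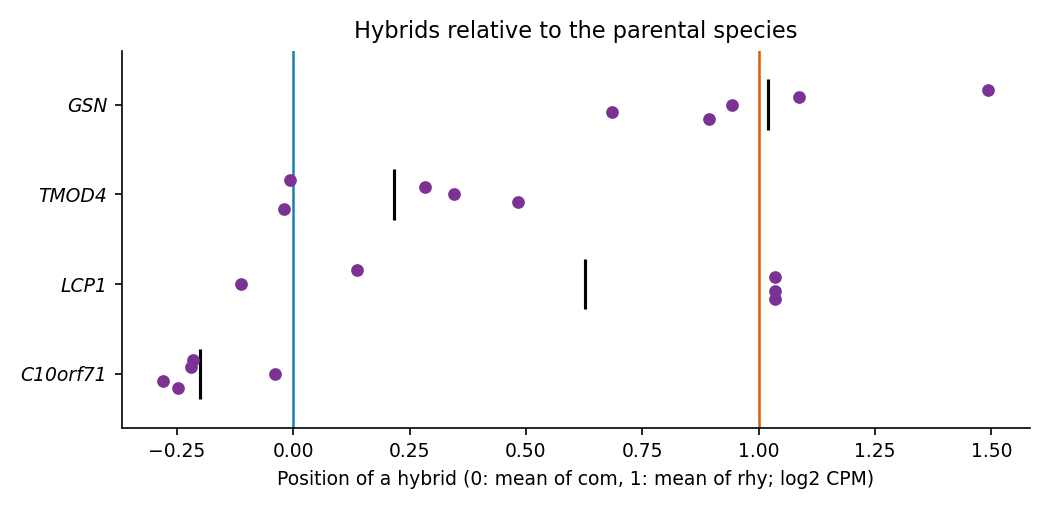
Position of each hybrid (points) between the parental means on log2 CPM, where 0 is the mean of *com* and 1 the mean of *rhy* (coloured lines), for the 4 genes called between the species. Black bars are means over 5 hybrids. *GSN* lies around 1, *TMOD4* between -0.02 and 0.48, *C10orf71* just below 0, and *LCP1* splits into 3 fish near 1 and 2 near 0.

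Placed on a line from *com* (0) to *rhy* (1) on log2 CPM, the hybrids averaged 1.02 ± 0.30 for *GSN*, 0.22 ± 0.22 for *TMOD4* and -0.20 ± 0.09 for *C10orf71* (SD, n = 5). For *GSN* the hybrids ran from 0.68 to 1.49, around the mean of *rhy*. For *C10orf71* they ran from -0.28 to -0.04, all on the far side of the *com* mean, a difference that the test of hybrids against *com* did not pass. Leaving out com104 moved the mean for *C10orf71* to -0.31. For *LCP1* the 3 hybrids without counts stood at 1.04, comrhy61 at -0.11 and comrhy63 at 0.14.

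*KLHL30* belongs to the kelch-like family, whose members bring substrate proteins to cullin ubiquitin ligases. Hybrids lay within 162, 151, 152, 164 and 156 CPM (comrhy59 to comrhy63), a CV of 0.0366 and the narrowest of any member in any group. The *rhy* fish had 201, 168, 219, 166 and 209 CPM from rhy49 to rhy53. The *com* fish had 190 CPM in com104 and 98.2 to 112.7 in the other 4. All hybrids were below all *rhy* fish and above every *com* fish but com104.

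In *rhy* against *com*, *KLHL30* was higher by 0.63 (SE 0.15, adjusted p = 0.00322 by edgeR), within the fold limit and with overlapping fish. Without com104 it was 0.83 (adjusted p = 7.48e-06) and the species no longer overlapped. Of the 6 members *KLHL30* thus had the smallest difference between the species with com104, while without it *HIP1* did (-0.67). Hybrids against *com* gave 0.33 (interval 0.01 to 0.65, adjusted p = 0.130), and without com104 0.53 (adjusted p = 0.00105 by edgeR), which passed the p threshold within the fold limit. Hybrids against *rhy* gave -0.29 (interval -0.62 to 0.03, adjusted p = 0.157), or an adjusted p of 0.0209 without com104. The hybrids differed from the mean of both parents by 0.02 (interval -0.26 to 0.30, adjusted p = 0.947).

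Ratios of TPM within a fish do not depend on library scaling, and 2 of them were taken for pairs of members chosen after the values were seen, as a description. *C10orf71* was 2.81 to 3.68 times as abundant as *KLHL30* in hybrids, but 0.630 to 0.881 times in *rhy*, against 2.70 to 4.08 times in *com*. Com104, with the highest *com* level of both genes, had a ratio of 3.08, within the range of the other *com* fish. *GSN* reached 0.0749 to 0.149 of the level of *TMOD4* in hybrids, 0.137 to 0.279 in *rhy* and 0.00991 to 0.0409 in *com*. In this ratio only the highest hybrid, comrhy63, reached into the range of *rhy*, and both groups stood clear of *com*. The lowest *com* value was that of com104, and the other 4 *com* fish had 0.0339 to 0.0409.

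**Figure D4:**
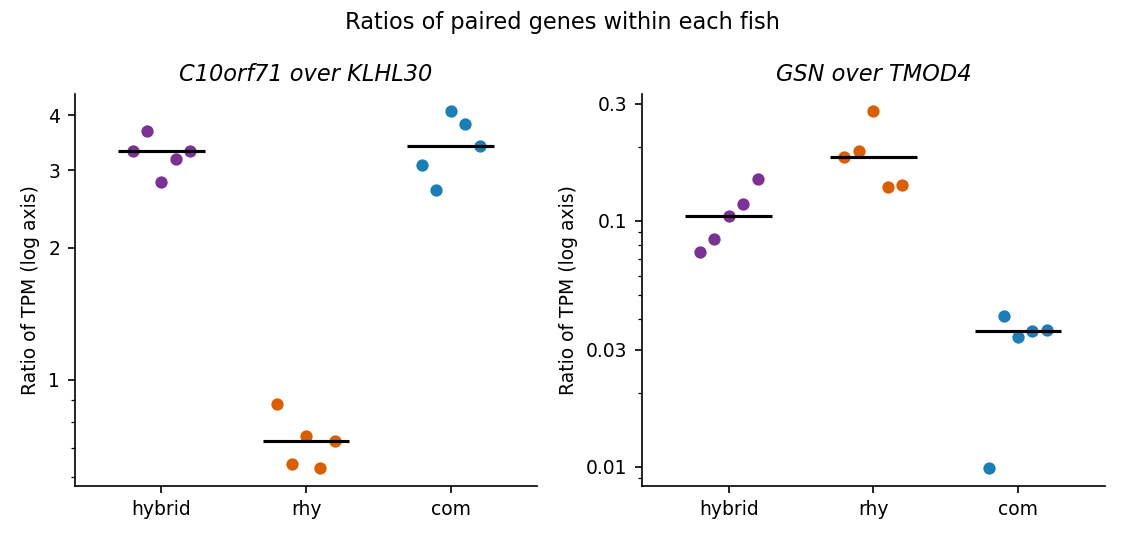
Ratio of TPM of *C10orf71* over *KLHL30* and of *GSN* over *TMOD4* in each fish (points, log axes), with hybrid, *rhy* and *com* from left to right and bars at the medians. In the first ratio *rhy* stands alone below 1, and in the second *com* stands alone below 0.05.

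Other models with the most similar profiles over the 15 fish were found by the root mean square difference of centred log2 CPM, where a smaller value is closer. The closest to *C10orf71* among 18488 others was maker-ptg001309l-est_gff_est2genome-gene-5.124, at 0.169, a model on the same contig with a nearly adjoining number. It averaged 1136 ± 74.7 CPM in hybrids, 369 ± 103 in *rhy* and 972 ± 271 in *com* (SD, n = 5 each). Its CPM was 2.63 to 2.97 times that of *C10orf71* in hybrids, 2.73 to 4.20 times in *rhy* and 2.58 to 3.09 times in *com*, the highest being rhy53. Its model is 7573 bases long against 2700 for *C10orf71*, and neither had fractional counts in any library. On the log2 scale this model stood at -1.40 in *rhy* against *com* (SE 0.19, adjusted p = 3.07e-05 by edgeR). Whether both models belong to 1 gene was not tested.

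**Figure D5:**
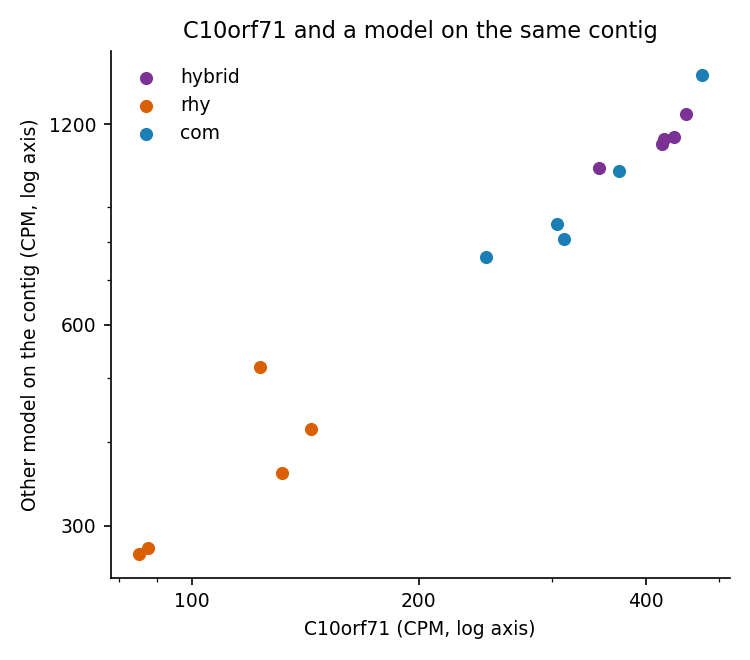
CPM of *C10orf71* (horizontal) and of the model on its contig with the closest profile (vertical) in each fish, both on log axes, coloured by group. The *rhy* fish sit at the low end of both axes and hybrids and *com* at the high end, with com104 highest on both.

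For *GSN* the closest models were maker-ptg000084l-snap-gene-25.40 (0.435) and maker-ptg000496l-snap-gene-5.15 (0.442). For *TMOD4* they were maker-ptg002101l-snap-gene-0.55 (0.1703) and maker-ptg000405l-snap-gene-31.41 (0.181), and for *HIP1* maker-ptg000875l-snap-gene-0.0 (0.0971) and maker-ptg001452l-snap-gene-2.12 (0.138). *KLHL30* was nearest to maker-ptg002165l-augustus-gene-1.40 (0.129) and maker-ptg000633l-snap-gene-34.2 (0.145), *C10orf71* after its contig neighbour to maker-ptg000254l-snap-gene-4.35 (0.2799), and *LCP1* to maker-ptg000089l-snap-gene-1.5 (0.803) and snap_masked-ptg000633l-processed-gene-30.78 (0.835), both far off. No annotation of these models was used, so they are named by identifier. Among the members themselves, *TMOD4* stood at rank 203 in likeness to *C10orf71*, and *HIP1* at rank 519 in likeness to *TMOD4*, so these 3 genes, all lowest in *rhy*, were not each other's closest.

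The 6 members lie on 6 different contigs, and calls among the other models there are given as a description. Over all genes, 22.8% were called in *rhy* against *com* and 9.08% in hybrids against *com*. The shares were 12.1% in hybrids against *rhy* and 4.54% against the mean of both parents. On the contig of *GSN* none of the 4 other models tested was called in any comparison. Of 55 others on the contig of *C10orf71*, 4 rose and 8 fell in *rhy* relative to *com*, and none was called between hybrids and *com*. The 8 include the model of closest profile described above, for which belonging to the same gene as *C10orf71* was not tested. Of 21 on the contig of *TMOD4*, 2 were higher and 2 lower in *rhy*, and of 16 on that of *LCP1*, 3 were higher and 2 lower. *HIP1* had 46 tested neighbours, 4 higher and 2 lower in *rhy*, and *KLHL30* had 53, 6 in each direction.

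Another 15 actin regulators and motor proteins named in the study's tables were tested. In *rhy* against *com*, 3 were higher and 3 lower, with a median log2 fold change of -0.18, but without com104 2 were higher and 1 lower. Over all genes 22.8% were called with all fish. The higher ones were *MCF2* (2.57), *RND3A* (2.02) and *MYO5C* (2.77), an unconventional myosin. The lower ones were *EPB41L3A* (-3.25), which ties the membrane to spectrin and actin, *PACSIN3* (-1.04), which bends membrane, and *FILIP1* (-1.02), which binds filamin. Some of these folds rest on few counts. *MYO5C* had 7 and *RND3A* 39 summed over *com*, and *EPB41L3A* had 8 summed over *rhy*. *MYO5C* thus passed the filter on low counts without any *com* library, and *EPB41L3A* without any *rhy* library. Without com104 the calls of *MYO5C* (2.43, adjusted p = 0.0842 by edgeR), *EPB41L3A* (-2.68, adjusted p = 0.0529) and *FILIP1* (-0.97, within the fold limit) were lost. In hybrids 2 were higher than in *com* (9.08% of all genes called), *MCF2* by 1.72 and *ARHGAP27* by 1.35. Against *rhy* 12.1% of all genes were called and against the mean of both parents 4.54%. *ARHGAP27* was also the single one called against *rhy* (1.53) and against the mean of both parents (1.44, adjusted p = 0.000298 by edgeR), at 126 ± 16.1 CPM in hybrids, 43.5 ± 5.10 in *rhy* and 49.3 ± 22.5 in *com*.

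A further 5 genes from those tables were listed as muscle genes, *SCN4AA* among them. Of these, 4 were lower in *rhy* than in *com* and none was higher (median -1.88). Over all genes 22.8% were called in this comparison, with 2421 of 18489 lower in *rhy*. The 4 lower ones were *MYOCD* (-3.51), a cofactor of serum response factor, *CACNA2D1* (-3.52), a calcium channel subunit, *PPP1R3A* (-1.88), which brings a phosphatase to glycogen, and *SCN4AA* (-1.73). *SCN4AA* serves above as a mark of the organ, so its level here is not a separate observation on muscle genes. *MYOCD* and *CACNA2D1* had only 16 and 34 counts summed over *rhy*. *MEF2D*, a muscle transcription factor, had -0.86 (adjusted p = 0.0809 by edgeR). In hybrids *MYOCD* and *SCN4AA* were higher than in *rhy*, by 3.18 and 1.49, as *C10orf71* was, whereas *CACNA2D1* was lower than in *com*, at -3.30. Over all genes 12.1% were called between hybrids and *rhy* and 9.08% between hybrids and *com*. *MYOCD*, *CACNA2D1*, *PPP1R3A* and *MEF2D* stand in the study's group of genes whose expression falls as the discharge lengthens. A lower level in *rhy*, which has the longer discharge here, was thus part of how they were chosen. These lists, too, came in part from the libraries analysed here, so nothing about muscle or actin genes as a group is read from these counts.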

How the data were processed

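The members and the gene lists were chosen with earlier results of these data known. The authors trimmed reads with Trimmomatic (version 0.39) and counted them on the *C. compressirostris* gene models with RSEM, which gave the deposited expected counts and TPM. The strand setting of the counting is not given in the sources used here. Expected counts were rounded, and models were tested where 2 or more libraries had a count above 10 (18489 of 34492, all 6 members among them). With TMM scaling, edgeR 4.0.16 under R 4.3.3 made 1 quasi-likelihood fit with a coefficient per group and no covariate, since the labels name no batch. P-values were adjusted by Benjamini-Hochberg. TPM, per length, served to compare members. DESeq2 (version 1.42.0) and limma (version 3.58.1, on log2(TPM + 1)) were alternatives, with other filters, samples and scalings, and the lists, CVs and ratios without com104 were added after seeing the data. Named beside the members were the genes of the lists and, per member, the 2 models with the most similar profile (log2 CPM with a prior count of 2). The edgeR fit and the call were tried on simulated counts for *rhy* against *com* only. The other comparisons, the positions and the ratios were not tried in this way. Chi-square values per degree of freedom between libraries of a group were 18.9 to 126, where sampling noise alone gives about 1, so none was a copy. Nothing in the labels says that fish of a group came from separate broods. Adult libraries and allele depths were not analysed here. Tables and plots were made in Python 3.11.15 with numpy 2.4.6, pandas 2.3.3, scipy 1.17.1 and matplotlib 3.10.9.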

Additional observations from a re-analysis of the deposited data

Results flagged for a closer look

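Dixon's criterion (critical value 0.71), by which chance marks about 1 of 20 sets, was applied to 18 sets of 5 fish (each member in each group). *KLHL30* was at 189.8 CPM in com104, against 98.2 to 112.7 CPM in the other *com* fish, a gap of 0.841 of the group's range. *LCP1* was at 0.0803 CPM in rhy52, where its 1 count was found, against 0 in the other *rhy* fish. This set meets the criterion by construction, since any count beside zeros does, and the value lies below the 0.206 to 0.225 CPM that a count of 0 allows in the other *rhy* libraries, so it does not set rhy52 apart.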

How the results depend on the processing

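No paired analysis was possible because the fish numbers are not shared between groups. Of 546 fold changes of members under other settings, 523 kept direction and side of the threshold, 10 lost a call, 5 gained one and 8 changed sign. The setting without a fold limit is counted among them, although it repeats the main fits under another threshold. The gains of *HIP1* and *KLHL30* in *rhy* against *com* came from it. Without a fold limit, all genes called numbered 8403 (*rhy* against *com*), 4041 (hybrid against *com*), 5283 (hybrid against *rhy*) and 2411 (hybrid against the mean of both parents), with 4 members in hybrid against *rhy*. With limma on log2(TPM + 1), 520 genes were called against the mean of both parents, 2 members in hybrid against *com* (*GSN*, and *LCP1* at -2.03 with adjusted p = 0.0392) and 1 in hybrid against *rhy*, *TMOD4* between *rhy* and *com* was -0.91, and *LCP1* against the mean of both parents was -0.35 (adjusted p = 0.739). That scale shifted the median of all genes by 0.14 in *rhy* against *com* and 0.15 in hybrid against *com*. With limma, all genes called numbered 1435 in hybrid against *com*. With the groups compared fitted alone, 1 member was called in hybrid against *rhy*, where *LCP1* lost its call (adjusted p = 0.0513 by edgeR). In hybrid against *rhy*, all genes called ran from 1624 to 5283 over the settings other than leaving out a fish. The mean position of hybrids for *C10orf71* was -0.32 on log2(TPM + 1). Leaving out each fish in turn gave 3 to 4 members called in *rhy* against *com*, 1 to 2 in hybrid against *rhy* and 1 in the other comparisons. All genes called in these refits numbered 3975 to 4329 (*rhy* against *com*), 1881 to 2312 (hybrid against *rhy*), 1398 to 1728 (hybrid against *com*) and 572 to 888 (hybrid against the mean of both parents). The mean position of hybrids for *C10orf71* ran from -0.31 to -0.12. Fold changes ran from -0.21 to 0.23 for *GSN* in hybrid against *rhy* and from -0.019 (without com124) to 0.12 for *KLHL30* against the mean of both parents. Apart from the fish left out and the smaller fits, the cause of these changes was not tested. Depth limits *LCP1* alone among the members.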
